A study of Homo sapiens with 5 samples.

Results

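The HOX genes were taken as the genes whose platform symbol is HOXA, HOXB, HOXC or HOXD followed by digits only. There were 28 of them, read by 44 probe sets, among the 19775 genes of the array that have a probe set of their own. Counts of genes used 1 probe set for each, that of the greatest mean value across the arrays. HOXB gave 10 genes, HOXC 9 and HOXD 8. HOXA2 was the only gene of the HOXA cluster, and the other HOXA genes were not analysed here.

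HOX genes encode transcription factors that bind DNA through a homeodomain and give cells their position along the axis from head to tail. They lie in 4 clusters in which the order of the genes follows the order of their domains in the body, with low numbers towards the head and high numbers towards the tail. HOX proteins bind together with the TALE homeodomain proteins PBX, MEIS and PKNOX. Retinoic acid switches on genes at the low-numbered end of a cluster, Polycomb complexes keep unused HOX genes silent, and Trithorax complexes keep used ones active. Cultured cells tend to retain the HOX pattern of the tissue they came from, which is why these genes serve as markers of identity.

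The study asked which genes follow the expression of α2 integrin, a collagen receptor, in MIAPaCa2 cells (MP2), an established line of poorly differentiated human PDAC that lacks α2. It had 5 stably transfected populations, 1 array each and no replicate. MP2-mock cells were the mock transfectants, kept under drug selection, and their label names neither the drug nor a coating. MP2-α2/TC cells and MP2-α2/CI cells both carried full-length α2 under a viral (cytomegalovirus) promoter and zeocin. They came from 1 panning and were then kept in standard culture or on collagenI. MP2-α2Δ cells carried α2 without its cytoplasmic domain, under zeocin and on collagenI. MP2-α9α2 cells carried the ectodomain and transmembrane domain of α9 joined to the cytoplasmic domain of α2, under G418 and on the FNIII domain of tenascin. The labels give coatings of 25 μg/mL for collagenI and 10 μg/mL for tenascin. All were drug-selected mixed populations, so that construct, drug and substrate differ together between MP2-α2Δ and MP2-α9α2 cells.

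Each array came with the normalized values its authors deposited, taken here as log2. The lowest value was 2.24 on the mock array and both arrays of full-length α2, and 2.21 on the MP2-α2Δ and MP2-α9α2 arrays. By these minima the arrays were taken as 2 normalization sets, the first 3 and the last 2. The sets are inferred from the values and are not named in the sources. Background, called the floor, came from 107 probe sets of odorant receptors, as their 95th percentile by array, and lay between 2.21 and 2.27. A value under the floor entered a difference as the floor. With 1 array per population no difference has an error or a p, so genes at least 2-fold apart were counted and read beside the same count over all genes. Depth has no counterpart on an array, and signal over the floor is the only measure of precision here. Of the constructs' own genes, ITGA2 was above the floor only in MP2-α2Δ cells (7.28 and 3.28 by its 2 probe sets), and ITGA9 on no array. The study states that its arrays identified no α2 in any of the cells, unlike this signal in MP2-α2Δ cells, whose source was not tested. By the study's account the constructs lack the 3′ untranslated sequence that the α2 probes read, so ITGA2 does not check the labels. For ITGA9 the part read was not found in the sources, and it checks nothing either.

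Promoter sequence from RefSeq (GRCh38.p14) was held for 11 of the 28 HOX genes. These made 10 different windows, from 250 bases before to 50 bases after a start of transcription. The windows below were chosen because they belong to the HOXB gene at the floor on every array (HOXB1), to a HOXC start listed for both HOXC4 and HOXC5, to a HOXD gene at the floor (HOXD11) and to MEIS2, the HOX partner that differed most within a normalization set. Each is written 5′ to 3′ on the strand of the gene, with matches to TGATNNAT, a site for HOX with PBX, in capitals.
HOXB1 (chr17:48530962-48531261, minus strand): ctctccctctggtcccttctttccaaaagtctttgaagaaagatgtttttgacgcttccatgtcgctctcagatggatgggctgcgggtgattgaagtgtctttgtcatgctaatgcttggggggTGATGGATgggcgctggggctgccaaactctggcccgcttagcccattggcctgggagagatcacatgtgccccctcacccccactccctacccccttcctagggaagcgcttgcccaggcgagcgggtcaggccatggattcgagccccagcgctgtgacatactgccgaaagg
HOXC4 and HOXC5 (chr12:54016638-54016937, plus strand): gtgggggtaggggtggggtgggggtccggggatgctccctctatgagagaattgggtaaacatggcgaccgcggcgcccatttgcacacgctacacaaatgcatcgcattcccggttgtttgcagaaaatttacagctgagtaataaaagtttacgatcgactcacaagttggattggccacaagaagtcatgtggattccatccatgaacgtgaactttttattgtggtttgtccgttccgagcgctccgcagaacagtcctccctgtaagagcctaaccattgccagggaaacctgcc
HOXD11 (chr2:176107030-176107329, plus strand): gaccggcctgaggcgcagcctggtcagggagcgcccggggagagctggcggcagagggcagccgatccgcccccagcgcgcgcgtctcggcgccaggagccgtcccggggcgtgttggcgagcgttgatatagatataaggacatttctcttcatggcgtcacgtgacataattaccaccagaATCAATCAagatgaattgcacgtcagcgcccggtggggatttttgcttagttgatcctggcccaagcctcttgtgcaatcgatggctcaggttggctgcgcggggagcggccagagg
MEIS2 (chr15:37098647-37098946, minus strand): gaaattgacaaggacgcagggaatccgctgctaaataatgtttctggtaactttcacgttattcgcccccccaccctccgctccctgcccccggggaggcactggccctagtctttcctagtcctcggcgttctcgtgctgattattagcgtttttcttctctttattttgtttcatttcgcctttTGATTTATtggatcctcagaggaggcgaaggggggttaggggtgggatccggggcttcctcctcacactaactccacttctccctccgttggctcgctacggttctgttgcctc
The match lay 125 bases before the start in HOXB1, 67 bases before it in HOXD11, where it reads on the opposite strand, and 64 bases before it in MEIS2. A further RefSeq window of MEIS2, not printed, held no match, and the window with the match was preferred for printing. Of the HOXD windows held, only that of HOXD11 had a match. The printed windows therefore do not show how common the site is. TGATNNAT, searched on both strands, occurred in 3 of the 10 HOX windows, namely those of HOXA2, HOXB1 and HOXD11. Of all 35116 promoter windows of this length, 7.4% held it. TAATTA, the homeodomain core site, occurred in 1 HOX window, that of HOXD11, against 4.84% of all windows. The 2 sites share no letters there. The GC content of the HOX windows ran from 46.33% to 74.33%, with a median of 59.0% against 58.67% over all windows. The median ratio of observed to expected CpG was 0.8075 against 0.579. Members at the floor and members above it could not be compared by these windows, since HOXC4 and HOXC5 were the only HOX genes with a window and with signal above the floor on every array.

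HOXB was the cluster with signal, HOXC was read in part and HOXD was not read. Of the 28 HOX genes, 15 were above the floor in MP2-mock (63.7% of all genes), 15 in MP2-α2/TC (63.9%), 13 in MP2-α2/CI (62.3%), 16 in MP2-α2Δ (65%) and also 16 in MP2-α9α2 cells (64.9%). A stricter level, 4 on the log2 scale, was passed by 10 HOX genes on each array, against 50.4% of all genes on each of the first 3, 52.1% (MP2-α2Δ) and 51.9% (MP2-α9α2) on the other two. On all 5 arrays 13 HOX genes were above the floor, against 60% of all genes, and 11 lay at the floor on all 5, against 31.6%. The 13 were HOXB2 to HOXB9, HOXB13, HOXC4, HOXC5, HOXC6 and HOXC8. Of the HOX genes 9 were over 4 on all 5 arrays, against 49.1% of all genes, and 17 were over 4 on no array, against 46.5%.

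**Figure D1:**
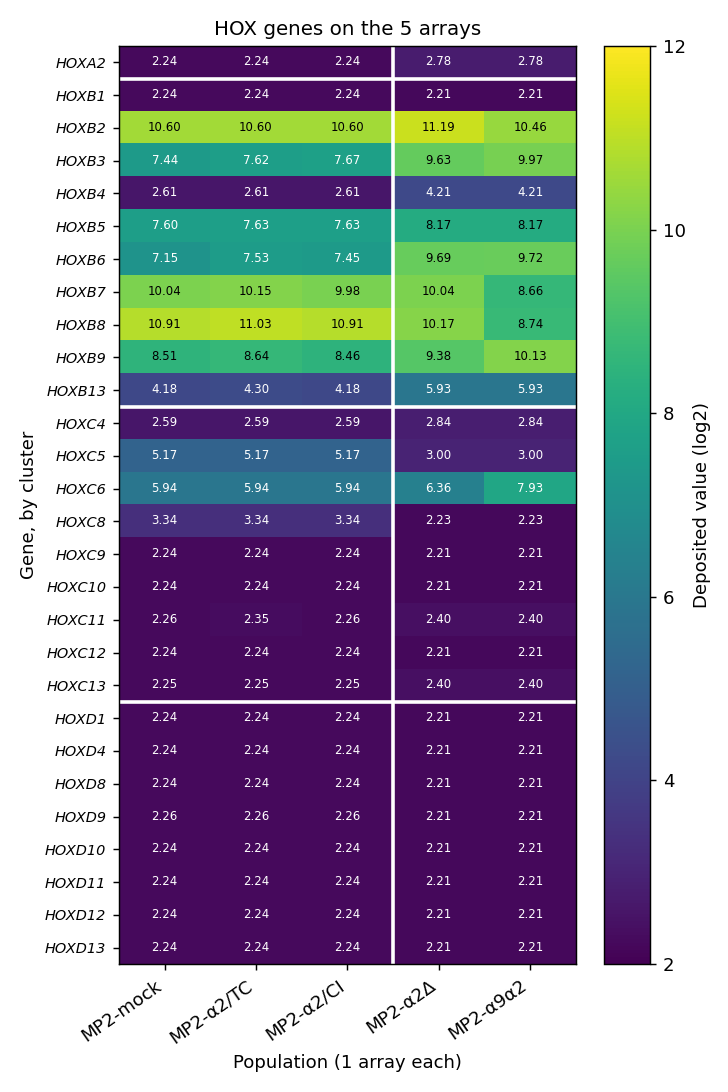
Deposited log2 values (colour and number) of the 28 HOX genes (rows, by cluster) on the 5 arrays (columns), 1 probe set per gene, with a white line between the normalization sets. HOXB1 lies at the minimum, HOXB4 reads 2.61 on the first 3 arrays and 4.21 on the other two, and all HOXD genes lie at or within 0.1 of the minimum of the arrays.

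The genes read in the HOXB cluster were neighbours. In the RefSeq order of chromosome 17 the genes above the floor run from HOXB2 to HOXB9 without a gap, followed by HOXB13 at the far end. By the level of 4, HOXB4 is a gap in this run on the first 3 arrays. HOXB1, a hindbrain gene and the end member of the cluster on the other side, was at the floor on all 5 arrays by both of its probe sets. HOXB2, another hindbrain regulator, read 10.60 on each of the first 3 arrays, 11.19 in MP2-α2Δ against 10.46 in MP2-α9α2 cells. It was thus far above the floor in every population. HOXB5, a regulator of gut innervation and vessel formation, read 7.60 in the mock population, 7.63 with full-length α2 on either substrate and 8.17 on both arrays of the second set. Its other probe set, with an ID ending in _x_at, differed from this, at 6.71 on each of the first 3 arrays, 6.67 in MP2-α2Δ against 7.15 in MP2-α9α2 cells. HOXB13, known for its role in the prostate, read 4.18 in the mock population, 4.30 on plastic, 4.18 on collagenI and 5.93 on both arrays of the second set. Its other probe set read 3.64 on the first 3 arrays and 5.03 and 4.97 on the others and showed a step between the sets as well. HOXB4, a gene of blood stem cells, read 2.61 on each of the first 3 arrays and 4.21 on both others, by its only probe set.

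The HOXC cluster was read at its low-numbered end. HOXC6, which acts in mammary and neural development, read 5.94 on each of the first 3 arrays, 6.36 in MP2-α2Δ against 7.93 in MP2-α9α2 cells. HOXC5 read 5.17 on each of the first 3 arrays and 3.00 on both others. HOXC8, a thoracic gene, read 3.34 on each of the first 3 and 2.23 on both others, against a floor of 2.21 there, which is in effect background. HOXC4 read 2.59 and 2.84 in the 2 sets. HOXC9, HOXC10 and HOXC12 were at the floor on all 5 arrays. HOXC11 and HOXC13 did not exceed 2.40 on any array. The spans of HOXC4, HOXC5 and HOXC6 overlap in RefSeq, as do those of HOXB3 and HOXB4. Whether each probe set separates the transcripts of overlapping genes was not tested.

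No HOXD gene gave a signal. HOXD carries genes of limb and genital development at its high-numbered end, and 14 of its 15 probe sets lay at the floor on all 5 arrays. The exception, a probe set of HOXD9, read 2.26 on the first 3 arrays, just over the floors of MP2-mock and MP2-α2/TC. A further 4 probe sets carry several symbols, 3 of them HOXD3 with HOXD4 and 1 HOXA10-AS with MIR196B, and all 4 were at the floor on every array. HOXA2, a hindbrain gene, was at the floor on the first 3 arrays and read 2.78 on the other two. A gene at the floor is not read by these probes at this signal, which does not show that it is silent.

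The pattern of reading was nearly the same in all 5 populations. By the level of 4, 26 of the 28 HOX genes had the same call on every array, against 95.6% of all genes, so that HOX genes held their calls about as often as other genes. The exceptions were HOXB4, over 4 only in MP2-α2Δ and MP2-α9α2 cells, and HOXC5, over 4 only on the other 3 arrays. By the floor, 24 of 28 had the same call on every array, against 91.5%.

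**Figure D2:**
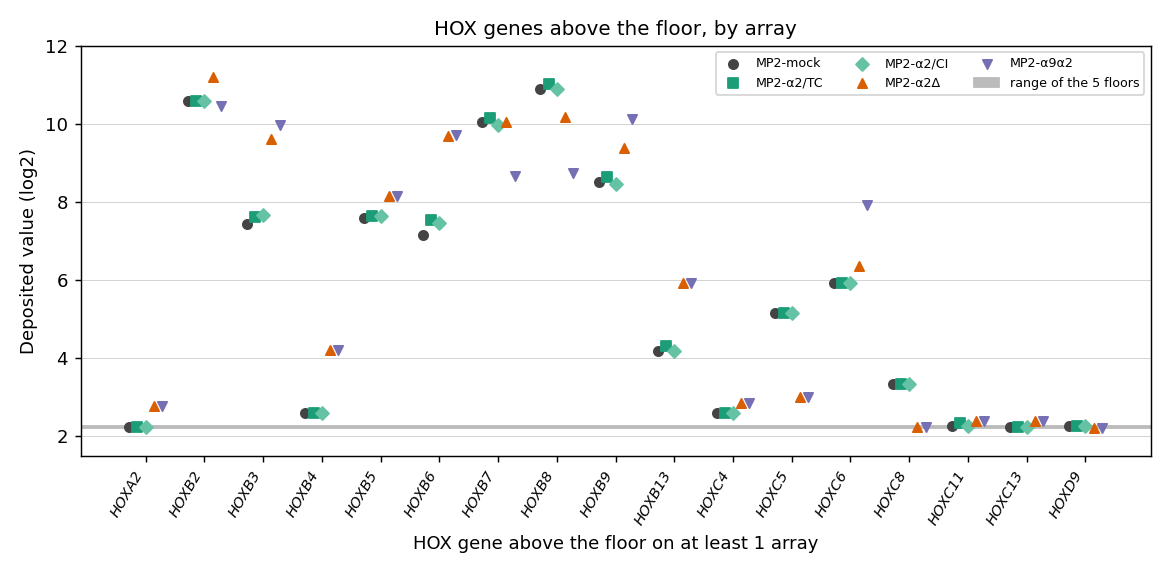
Deposited log2 values (y axis) of the 17 HOX genes above the floor on at least 1 array (x axis), 1 point per array, with the range of the 5 floors in grey. The points of the first 3 arrays lie together for each gene, within 0.38, while HOXB7, HOXB8 and HOXC6 differ between MP2-α2Δ and MP2-α9α2 cells.

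Full-length α2, on plastic or on collagenI, came with no 2-fold difference in any HOX gene. In MP2-α2/TC against MP2-mock cells, 0 of 15 HOX genes above the floor on either array were at least 2-fold apart, where 0.67% of all genes were. The count was 0 of 15 in MP2-α2/CI against MP2-mock cells (0.65% of all genes) and 0 of 15 for collagenI against plastic (0.19%). At such shares a count of 0 in 15 genes says little about the HOX genes. The widest difference was that of HOXB6, a gene of lung and blood development, which read 7.15 in the mock population, 7.53 on plastic and 7.45 on collagenI, or log2 differences of 0.38 and 0.31 from MP2-mock. This rests on 1 probe set with an ID ending in _s_at, and the other probe set of HOXB6 read 3.36 on all 3. HOXB3, a gene of hindbrain and neck organs, read 7.44, 7.62 and 7.67, with differences of 0.19 and 0.23. Set against plastic, collagenI gave differences from -0.18 to 0.04, the lowest being those of HOXB7 and HOXB9. No error is available against which these small differences could be set.

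Many of these values were the same to the last digit. Of the 15 HOX genes above the floor on any of the first 3 arrays, 7 had identical values on all 3 within 1e-06, among them HOXB2, HOXC5 and HOXC6. This was so for 33.2% of all genes. Of the 16 above the floor in MP2-α2Δ or MP2-α9α2 cells, 8 were identical on both, against 23.3% of all genes. Among these were HOXB5, HOXB13, HOXC5 and HOXC8. With genes over 5 only, the counts were 3 of 9 and 2 of 9, against 19.6% and 8.41%. Such values are shared entries of the deposited table, and a difference of 0 is not a measure of how alike the cells were.

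MP2-α2Δ and MP2-α9α2 cells had HOX genes 2-fold apart about as often as other genes, namely HOXB7, HOXB8 and HOXC6. Of 16 HOX genes above the floor on either array, 2 were at least 2-fold higher in MP2-α2Δ cells, where 10.1% of all genes were, and 1 was at least 2-fold lower, where 4.97% were. Together 3 of 16 passed 2-fold, against 15% of all genes, a share near the background. The median difference was 0 over the HOX genes and 0 over all genes.

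HOXB7, a HOX gene often high in carcinomas, read 10.04 in MP2-α2Δ against 8.66 in MP2-α9α2 cells, and 9.98 to 10.15 on the other 3 arrays. MP2-α9α2 was thus the low array. Its log2 difference was 1.38, or 2.60-fold higher in MP2-α2Δ cells, and the 3 probe sets of HOXB7 differed by 0.81, 1.38 and 1.64. HOXB8, its neighbour and a regulator of myeloid progenitors and of limb and spinal cord patterning, read 10.17 in MP2-α2Δ against 8.74 in MP2-α9α2 cells, while the other 3 arrays gave 10.91 to 11.03. This was 2.71-fold higher in MP2-α2Δ cells, a log2 difference of 1.44, and the other probe set read 4.02 and 3.11, a log2 difference of 0.91. All 5 probe sets of HOXB7 and HOXB8 thus ran the same way.

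HOXC6 read 6.36 in MP2-α2Δ against 7.93 in MP2-α9α2 cells, so that MP2-α9α2 was the high array, by a log2 difference of -1.58. It was 2.98-fold lower in MP2-α2Δ cells, from 1 probe set whose ID ends in _s_at. HOXB9, next to HOXB8, read 8.51, 8.64 and 8.46 on the first 3 arrays. In MP2-α2Δ against MP2-α9α2 cells it read 9.38 and 10.13, a log2 difference of -0.74. Its other probe set was 1.998-fold lower in MP2-α2Δ cells. HOXB9 thus ran against HOXB7 and HOXB8. HOXB2 was 0.73 higher in MP2-α2Δ cells. HOXB3 differed by -0.34, and HOXB5 and HOXB6 by 0.00 and -0.04. By the probe sets counted, the nearest to the 2-fold threshold were HOXB9 (1.68-fold) and HOXB2 (1.66-fold) outside it and HOXB7 (2.60-fold) inside it. The probe sets behind the 3 counted genes can read several transcripts, since their IDs end in _x_at or _s_at. Without such probe sets 0 of the HOX genes were 2-fold apart, HOXB8 being left at 0.91 and HOXB7 and HOXC6 without a probe set.

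**Figure D3:**
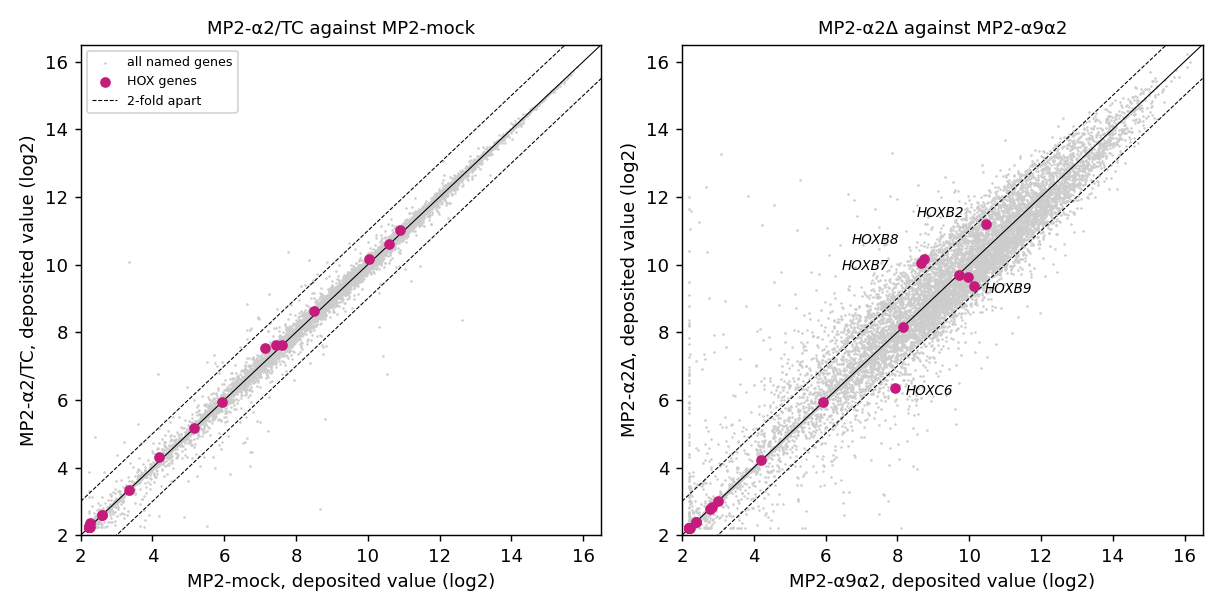
Deposited log2 values of MP2-α2/TC (y axis) against MP2-mock cells (x axis) on the left, and of MP2-α2Δ (y axis) against MP2-α9α2 cells (x axis) on the right, 1 point per gene, with HOX genes in colour and dashed lines at 2-fold. No HOX gene leaves the band on the left, and HOXB7, HOXB8 and HOXC6 leave it on the right.

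Between the normalization sets, the HOX genes moved in both directions. Over the 27320 probe sets read above the floor throughout, the last 2 arrays ran higher than MP2-mock by a median of 0.53 (MP2-α2Δ) and 0.54 (MP2-α9α2). Their array medians were 7.72 and 7.69, against 6.88 for MP2-mock. Differences were therefore also taken after centring each array on that array median and after quantile normalization. The array medians stand further apart than the median shift of single probe sets. Centring therefore takes off more than that shift and leaves more of all genes lower than higher. As deposited, MP2-α2Δ against MP2-mock cells had 4 of 17 HOX genes higher by 2-fold or more and 2 lower, where 30.2% of all genes were higher and 6.91% lower (37.1% apart). In MP2-α9α2 against MP2-mock cells 6 were higher and 4 lower, where 31.7% and 11% of all genes were (42.7% apart). In MP2-α2Δ against MP2-α2/CI cells, both on collagenI and under zeocin, 4 of 16 were higher and 2 lower, where 29.9% and 6.65% of all genes were (36.6% apart). Centring changed the first split to 2 higher and 3 lower (11.4% and 23.3% of all genes), the second to 3 and 4 (14.9% and 25.8%), and the last to 2 and 3 (10.9% and 22.5%). Quantile normalization gave 3 and 3 (14.2% and 16.6%), 4 and 4 (17.5% and 20.1%), and 3 and 3 (13.4% and 15.7%). The MP2-mock array is shared by the first 2 of these comparisons.

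By all 3 scalings HOXB6 and HOXB3 exceeded their MP2-mock values by 2-fold or more on both arrays. HOXB6 stood at 9.69 (MP2-α2Δ) and 9.72 (MP2-α9α2) against 7.15 for MP2-mock, with log2 differences of 2.54 and 2.58, against 1.70 and 1.77 after centring and 1.79 and 1.83 after quantile normalization. HOXB3 read 9.63 and 9.97 against 7.44, with differences of 2.19 and 2.53, then 1.35 and 1.72 after centring and 1.43 and 1.79 after quantile normalization. The other probe set of each gene also read higher, by about the same step, at 5.35 and 5.35 against 3.36 for HOXB6 and at 5.38 and 5.27 against 3.31 for HOXB3.

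HOXC5 and HOXC8 were at least 2-fold lower than in MP2-mock cells on both arrays by all 3 scalings. Each has 1 probe set, with the same deposited value on MP2-α2Δ and MP2-α9α2, so the arrays are not separate readings of this. HOXC5 differed by -2.16 as deposited on both arrays, and by -2.66 and -2.62 after quantile normalization. HOXC8 differed by -1.11 on both, at a level near background. In MP2-α9α2 cells HOXB8 (-2.17 as deposited, -2.97 centred and -2.87 by quantiles) and HOXB7 (-1.38, -2.18 and -2.10) were also lower by all 3 scalings, and HOXC6 (1.19 after centring and 1.17 after quantile normalization) was higher. In MP2-α2Δ cells HOXB8 differed from MP2-mock by -0.73 as deposited, -1.57 after centring and -1.34 after quantile normalization. HOXB7 read 10.04 on both of these arrays, and differed by -0.84 after centring and -0.64 after quantile normalization. HOXB4 and HOXB13 were higher than in MP2-mock cells by 1.61 and 1.76 in MP2-α2Δ cells as deposited, and by 0.77 and 0.91 after centring. After quantile normalization HOXB4 differed by 1.20, over 2-fold, and HOXB13 by 0.92. In MP2-α9α2 cells HOXB4, HOXB9 and HOXB13 differed from MP2-mock by 1.60, 1.61 and 1.76 as deposited. These became 0.80, 0.81 and 0.95 after centring and 1.26, 0.92 and 0.98 after quantile normalization. The directions of HOXB2, HOXB5 and HOXC6 were not settled, being above 0 as deposited in MP2-α2Δ cells (0.60, 0.57 and 0.42) and below it after centring (-0.25, -0.27 and -0.42). After quantile normalization these differences were 0.01, -0.26 and -0.48. HOXB genes thus differed unequally between the sets, HOXB6 being higher and HOXB8 lower in MP2-α9α2 cells by all 3 scalings. Normalization set and population cannot be told apart. In RNA from whole populations, fewer cells with a transcript and less of it per cell cannot be told apart either.

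**Figure D4:**
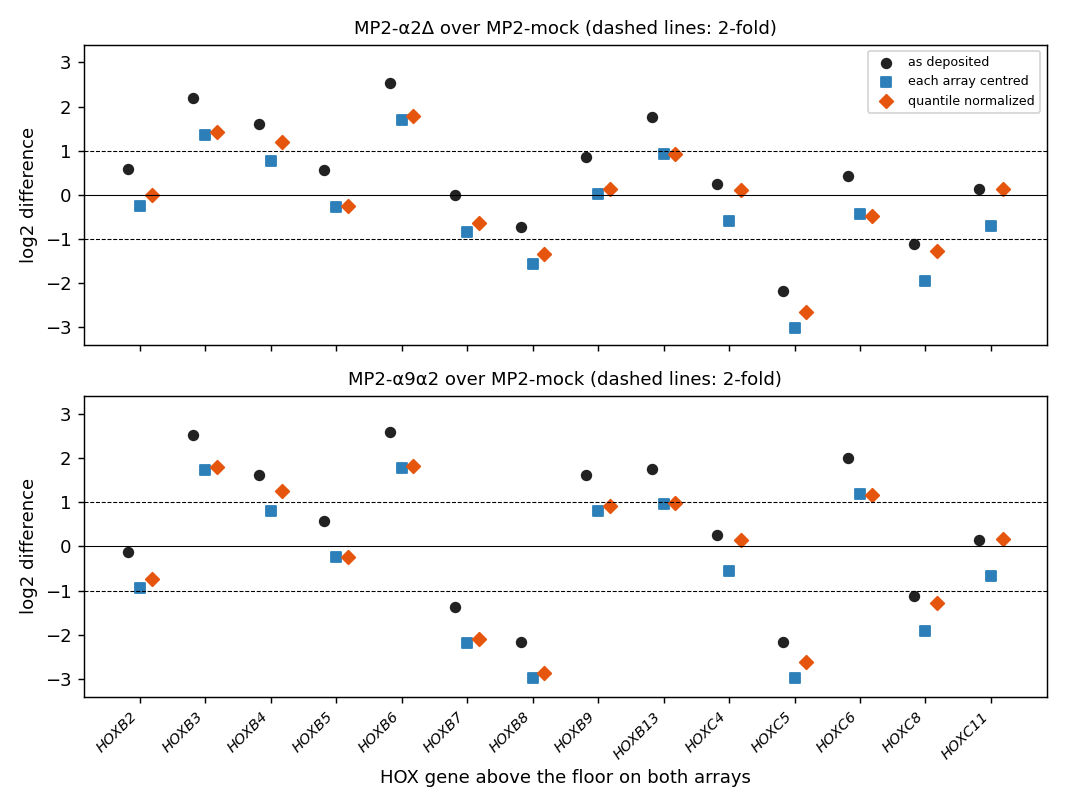
Log2 difference (y axis) of each HOX gene above the floor on both arrays (x axis) from MP2-mock cells, for MP2-α2Δ (top) and MP2-α9α2 (bottom), as deposited, with each array centred and after quantile normalization, with dashed lines at 2-fold. HOXB3 and HOXB6 lie above 2-fold and HOXC5 and HOXC8 below it by all 3 scalings in both panels, and HOXB7 and HOXB8 lie below it in the bottom panel. HOXC5 and HOXC8 each have the same deposited value in MP2-α2Δ and MP2-α9α2 cells.

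Among the partners of HOX proteins, MEIS2 stood apart. Of 9 listed TALE genes 8 were measured, and 0 of the 7 above the floor were 2-fold apart between any of the first 3 arrays. Over all genes the share was 0.19% to 0.67% in these pairs, so a count of 0 says little. MP2-α2Δ set against MP2-α9α2 cells had 2 of 7 that were at least 2-fold higher and 0 lower, beside 10.1% and 4.97% of all genes, with a median of 0.15 against 0 for all genes. MEIS2, a cofactor that raises the DNA binding of HOX and PBX, read 5.78 in the mock population, 5.97 on plastic, 6.06 on collagenI, 11.16 in MP2-α2Δ and then 4.22 in MP2-α9α2 cells, by its only probe set, with an ID ending in _s_at. MP2-α2Δ cells thus read it 123-fold over MP2-α9α2 cells, or a log2 difference of 6.94. PBX2, a direct partner of HOX proteins, read 7.76 on each of the first 3 arrays, 8.67 in MP2-α2Δ against 7.24 in MP2-α9α2 cells, or a log2 difference of 1.43. Of the other PBX2 probe sets, 2 differed by 2.01 and 1.27, and the last by 0.15. PBX3 ran the other way by -0.82, and PBX4 read 5.22 on each of the first 3 arrays, 3.61 in MP2-α2Δ with 3.41 in MP2-α9α2 cells. MEIS1, the partner known from leukaemia with HOX genes, was at the floor on every array. A link between MEIS2 and the HOXB7 and HOXB8 values was not tested.

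Genes of retinoic acid handling, which sets HOX levels in the embryo, were tallied next. Of 24 listed genes 20 were measured, and 0 were 2-fold apart between any of the first 3 arrays. This too says little, since 0.19% to 0.67% of all genes were. Between MP2-α2Δ and MP2-α9α2 cells 3 were at least 2-fold higher and 1 lower, of 16 above the floor on either, near the 10.1% and 4.97% of all genes, with a median of 0. RARB, a retinoic acid receptor that is itself a target of retinoic acid, was at the floor on 4 arrays by its probe set of highest mean, which read 8.11 in MP2-α9α2 cells, at least 59.7-fold above MP2-α2Δ cells. A further RARB probe set read 6.47 there and 2.48 in MP2-α2Δ cells, and the remaining 3 did not differ. CYP26B1, which degrades retinoic acid, read 7.87 in MP2-α2Δ against 5.80 in MP2-α9α2 cells, and DHRS3, which limits its synthesis, 6.94 and 4.97. STRA6, a retinol transporter, read 3.27 and 2.22, near the floor. ALDH1A1, an enzyme that makes retinoic acid, read 13.21 to 13.60 on the first 3 arrays, 15.42 in MP2-α2Δ with 15.61 in MP2-α9α2 cells. CDX2, an intestinal activator of HOX genes, did not exceed 3.57 on any array.

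**Figure D5:**
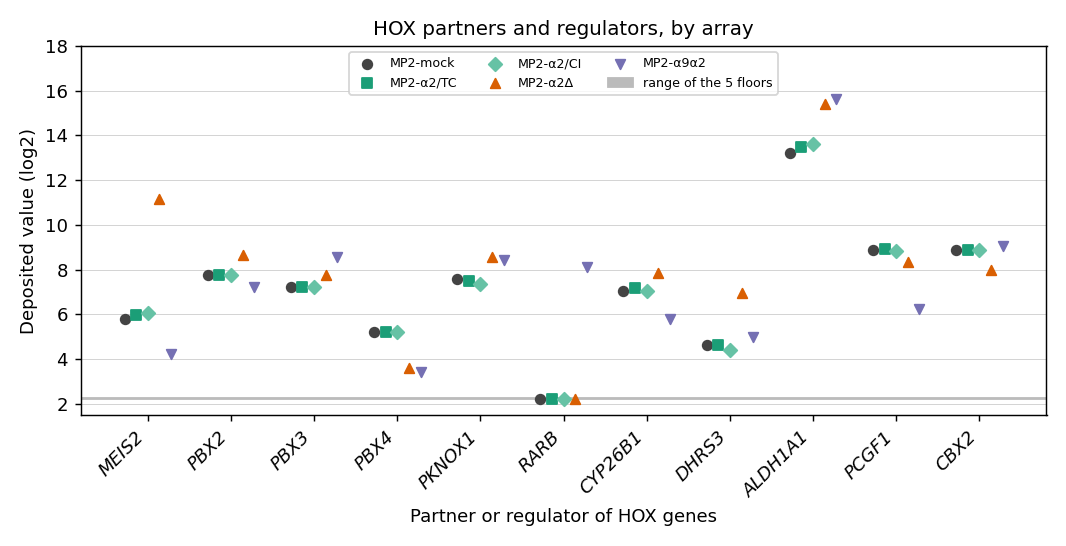
Deposited log2 values (y axis) of HOX partners and regulators (x axis), 1 probe set per gene and 1 point per array, with the range of the 5 floors in grey. MEIS2 lies at 11.16 in MP2-α2Δ against 4.22 in MP2-α9α2 cells, and this probe set of RARB is above the floor only in MP2-α9α2 cells.

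Polycomb and Trithorax genes were read throughout, and of those measured only KDM6A, an H3K27 demethylase, was at the floor. All 23 measured Polycomb genes, of 27 listed, were over 4 on all 5 arrays, as were 14 of 15 measured Trithorax and H3K27 demethylase genes, of 16 listed, where 49.1% of all genes were. None of either list was 2-fold apart between any of the first 3 arrays, where only 0.19% to 0.67% of all genes were. In MP2-α2Δ against MP2-α9α2 cells 5 of 23 Polycomb genes stood 2-fold or more higher and 2 lower, beside 10.1% and 4.97% of all genes, with a median of -0.02. PCGF1, a subunit of a variant Polycomb complex, read 8.36 in MP2-α2Δ against 6.24 in MP2-α9α2 cells by one probe set, while the other differed by 0.32. PCGF5, of the same kind of complex, read 7.14 and 5.99, and RING1, the catalytic subunit, 8.50 and 7.42. PCGF2, a subunit of canonical complexes, ran the other way at 9.18 and 10.47, as did CBX2, which binds the Polycomb histone mark, by -1.07. The Trithorax list had 0 of 14 genes at least 2-fold higher and 0 lower, beside the same shares, with a median of 0. EZH2, the Polycomb methyltransferase, and KMT2A, the Trithorax methyltransferase known for HOX control, were not 2-fold apart there by the probe sets of highest mean, and KMT2A probe sets disagreed, running from -1.61 to 2.09.

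Noncoding transcripts of the HOXC and HOXD clusters were at the floor. Of 29 listed neighbours 22 were measured, 10 of them at the floor on all 5 arrays, against 31.6% of all genes. The 10 at the floor included HOTAIR of the HOXC cluster, HOTTIP of HOXA and HAGLR and HAGLROS of HOXD, all long noncoding RNAs. HOXB-AS1, an antisense transcript between HOXB2 and HOXB3, read 4.76 to 4.91 on the first 3 arrays and 5.44 and 5.38 on the other two, close to level within each set. HOXA-AS2 read 2.41 on each of the first 3 arrays and 4.18 on both others. PRAC1, which lies before HOXB13, was at the floor on every array. The one neighbour 2-fold apart within a set was MTX2, of mitochondrial import and beside HOXD, at 11.27 in MP2-α2Δ against 10.21 in MP2-α9α2 cells. SKAP2, a signalling adaptor beside the HOXA cluster, read 8.98, 8.73 and 8.82 on the first 3 arrays, 12.22 in MP2-α2Δ against 12.91 in MP2-α9α2 cells, so its step between the sets exceeded the median shift. Of its 6 probe sets 4 showed this step and the others read near the floor.

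Markers of other cell types were at or near the floor for the most part. Of 7 blood cell markers measured, PTPRC, CD3E, HBB, LYZ and ITGB2 were at the floor on all 5 arrays and none was over 4. Of 7 endothelial markers, KDR, VWF and TIE1 were at the floor and CLDN5 alone passed 4, at 4.37 in MP2-α2Δ with 4.41 in MP2-α9α2 cells. Of 8 fibroblast markers, DCN, LUM, COL3A1, PDGFRA and FAP were at the floor on all 5 arrays. COL1A1 and COL1A2 were over 4 on all 5, at 7.18 to 8.11 and 11.97 to 13.08. The epithelial keratins KRT8, KRT18 and KRT19 read between 11.74 and 15.22. EPCAM, CFTR, CA2, CLDN7 and GRHL2 were at the floor, and CDH1 did not exceed 2.26 on any array. Thus 5 of 13 ductal epithelial markers were over 4 on all 5 arrays, against 49.1% of all genes. The others of these were MUC1, at 6.01 to 6.38 on the first 3 arrays and 9.56 and 8.77 on the other two, and CLDN4, at 5.99 to 6.34 and then 8.60 and 8.66. VIM and ZEB1 were the 2 of 8 mesenchymal markers over 4, at 15.48 to 15.85 and 10.12 to 11.09. VIM thus read above the range of the keratins and ZEB1 below it. Summed over its list as log2 above the floor, the ductal epithelial level was 42.1 to 42.6 on the first 3 arrays and then 49.99 and 48.3. The fibroblast level was 14.65 to 14.86 on the first 3 arrays and 16.13 and 16.79 on the other two. The endothelial sum was 0.99 to 1.13 and then 2.19 and 2.23, and the blood cell sum 1.19 to 1.26 and then 1.43 on both. The ductal epithelial, fibroblast, endothelial and blood cell sums were thus also higher in the second set. They were taken from deposited values, with no centring or quantile normalization. In the endothelial list CLDN5 rose from 2.67 in MP2-mock cells, and TEK from the floor to 2.23, while PECAM1 (2.49 to 2.21) and CDH5 (2.59 to 2.21) fell. In the blood cell list CD79A rose from 2.38 to 2.94 and CD14 fell from 3.36 to 2.91. The mesenchymal sum, 21.18 to 21.31 on the first 3 arrays, was nearly level at 21.41 (MP2-α2Δ) and higher at 22.61 (MP2-α9α2). The part of these sums in the HOX values was not tested.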

How the data were processed

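Total RNA of 5 MIAPaCa2 populations was hybridised to 5 Affymetrix arrays. The deposited values are one normalized number for each probe set, read as log2 from their range. GCRMA and MAS5 are named in the submitters' notes on processing, but their roles and versions, the log base and which arrays were normalized together are not given in the sources used here. Of 54675 probe sets 62 controls were left out. The platform annotation gave 41091 of the others 1 symbol, 1801 several and 11721 none. Of these symbols 41037 were matched by gene identifier through a RefSeq table of GRCh38.p14. Genes were named only from probe sets with 1 symbol.

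The floor of an array was set at the 95th percentile over its odorant receptor probe sets. Log2 differences were taken for 7 pairs of arrays, 4 within a normalization set. With 1 array per population no test was run, and the number of arrays limits the precision. Genes at least 2-fold apart were counted, 1 probe set per gene, among genes above the floor on either array. The counting was tested on simulated data. Python 3.11.15, numpy 2.4.6, pandas 2.3.3 and matplotlib 3.10.9 were used.

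The HOX genes and the lists were chosen with earlier results of these data known. Every HOX gene is named or counted. Members of other lists were named where at least 2-fold apart within a normalization set, at most the 4 of largest difference per list and pair, or where they define the list. Neighbours of the clusters were to be named whether or not they differed, but only some of those measured are named here. PBX3, PBX4, ALDH1A1, CDX2, KMT2A and CBX2 were added after their values were seen. The alternatives were a floor at 4 or at the 99th percentile, centring, quantile normalization, leaving out probe sets with IDs ending in _x_at or _s_at, the probe set of largest range, and 3-fold or 1.5-fold. A margin of 1 log2 unit over the floor was added after the data were seen.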

Additional observations from a re-analysis of the deposited data

How the results depend on the processing

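The counts of HOX genes were recomputed under each alternative. No HOX gene was 2-fold apart in MP2-α2/TC or MP2-α2/CI against MP2-mock cells, or between these 2, under any of them. Of the 3 HOX genes that differed by 2-fold in MP2-α2Δ against MP2-α9α2 cells, 0 remained without probe sets ending in _x_at or _s_at, as HOXB7 and HOXC6 have no others, and 0 at 3-fold, while 5 were counted at 1.5-fold. The 16 HOX genes above the floor in MP2-α2Δ and the 16 in MP2-α9α2 cells became 10 and 10 with a floor at 4, and 10 and 10 with a margin of 1 log2 unit over the floor. The other 91 recomputed counts stayed within 1.5 times the reported ones. Of 686 recomputed differences of single HOX genes, 88 moved by over 1.5-fold and none that was 2-fold turned its direction. No paired analysis was possible because each population has 1 array, and for the same reason no replicate could be left out. Differences of genes at the floor on an array are bounds.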

Other observations

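Of 20 measured transcription factors of the pancreas, 4 were over 4 on the log2 scale on all 5 arrays, against 49.1% of all genes, and 10 were at the floor on all 5, against 31.6%. SOX9, a factor of ductal and progenitor cells, read 11.10 on each of the first 3 arrays, and then 12.62 (MP2-α2Δ) and 13.29 (MP2-α9α2). MNX1, a homeobox factor of the early pancreatic bud, read 7.93 in MP2-mock and 7.98 on each array of the other set. GATA4 and PAX6 were also over 4 on every array. PDX1, a homeobox gene related to HOX that marks pancreatic progenitors, did not exceed 2.25 on any array, and NKX6-1, FOXA2 and RBPJL were at the floor. The one member that differed by 2-fold within a set was the exocrine nuclear receptor NR5A2, at 7.24 in the mock population by its probe set of highest mean. It read 9.13 on plastic and 9.50 on collagenI with full-length α2, and 4.68 (MP2-α2Δ) and 2.66 (MP2-α9α2) in the other set.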
